A study of Homo sapiens with 65 samples.

Results

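Interferon-stimulated genes were followed in human embryonic stem cells as they were differentiated into mesoderm, endothelium and blood cells, or into endoderm. The set holds 38 genes, taken by symbol from a list, of 58302 genes in the count table, and all 38 were found. The list was chosen with earlier results of these data known. RNA was sequenced from 65 libraries in 19 groups, of which 18 had replicates. All groups derive from H9, an established human embryonic stem cell line, carrying an mCherry reporter in SOX17 and a GFP reporter in RUNX1C. The unmodified reporter line is called WT here, and KO is its derivative with both RUNX1 copies disrupted by CRISPR deletion of the DNA-binding domain. The number of clones behind either line was not stated in the labels.

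The mesoderm cultures were grown in STAPEL medium with BMP4, activin A, VEGF, SCF and FGF2 up to day 4, with SB431542 and CHIR 99021 added from day 2 to day 4, and then with VEGF, SCF, FGF2 and IGF2. Unsorted mesoderm cells were taken at day 0, 2 and 4 (4 WT and 4 KO libraries each). CD34+ cells were sorted at day 7 as CD43- cells with or without the SOX17 reporter (4 libraries each, except 3 KO libraries without it). At day 12 the sorted CD34+ groups were SOX17+ CD43- cells (4 WT, 4 KO), SOX17+ CD43+ cells (2 WT), SOX17- CD43+ cells (3 WT) and SOX17- CD43- cells (1 KO, in no test). The endoderm cultures, WT only and unsorted, received activin A, CHIR and PI-103 on day 0 and activin A with DMH-1 up to day 7, and gave 3 libraries each at day 0, 2, 4 and 7. No group received interferon according to the labels.

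Interferons are secreted proteins that bind cell surface receptors, whose kinases activate the transcription factor complex ISGF3, which contains STAT2 and IRF9. It binds a short DNA element (the interferon-stimulated response element, built around repeated GAAA) and raises transcription of many genes that block viruses at entry, replication and release. Stem cells respond weakly to interferon and are known to hold part of these genes, among them the IFITM family, at a constant level without it.

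The RefSeq promoters of most members that could be matched show this element. A window of 300 bases, from 250 before to 50 after each gene start (GRCh38.p14), was searched on both strands for GAAANNGAAA, and overlapping matches were counted. Of the 38 members, 30 were matched by symbol, and 21 of these 30 (70.0%) held the motif at 1 or more of their starts, against 4.38% of all 27305 genes with a promoter there. Matches are shown for 10 genes that hold one and whose levels are described below. The 9 members without a match in the windows searched were OAS1, XAF1, CMPK2, IFI35, IRF1, IRF9, STAT2, SAMD9L and HERC6. The 8 members without a promoter there were IFIT2, IFITM2, MX2, OAS2, OASL, IRF7, USP18 and TRIM22. Capitals mark the match, and TTTC marks a match on the opposite strand.
IFITM1: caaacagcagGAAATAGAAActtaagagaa (chr11:313990-314019, plus strand)
IFITM3: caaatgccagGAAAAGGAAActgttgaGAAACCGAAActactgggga (chr11:320876-320922, minus strand)
BST2: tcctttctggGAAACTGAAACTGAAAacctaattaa (chr19:17405735-17405770, minus strand)
EPSTI1: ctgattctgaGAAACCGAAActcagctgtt (chr13:42992272-42992301, minus strand)
ISG20: taacaaactaGAAACTGAAAcagggtcggg (chr15:88638937-88638966, plus strand)
ISG15: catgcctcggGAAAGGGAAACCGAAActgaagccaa (chr1:1013374-1013409, plus strand)
IFIT3: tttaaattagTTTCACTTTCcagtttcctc (chr10:89327865-89327894, plus strand)
IFI44L: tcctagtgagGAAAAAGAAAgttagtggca (chr1:78620365-78620394, plus strand)
IFI44: gcacactgagTTTCAGTTTCctttctct (chr1:78649761-78649788, plus strand)
OAS3: agccgggcggGAAAACGAAAcc (chr12:112938452-112938473, plus strand)
These 10 genes did not move together in the cultures described below. A match of letters is a description and shows no binding.

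Levels are the authors' RPKM, which scale a gene's fragments by its length and its library, so they can be compared between genes. Changes are log2 fold changes ± standard error from edgeR's quasi-likelihood test on the counts, and a change is called where the p, adjusted by Benjamini and Hochberg's method across every gene fitted, is under 0.05. Libraries held 10366048 to 19081031 counts. Whether replicates were separate cultures is not given, so p-values reflect library-to-library spread, which may be technical. The level of RUNX1 in day 12 SOX17+ CD43- cells was 2.21 to 5.61 RPKM in WT and 0.59 to 1.23 in KO, with no overlap, and it was also called lower in KO SOX17+ cells of day 7. At day 0, 2 and 4 RUNX1 did not separate the genotypes, and the genotype field of the KO samples of day 2 and 4 does not name the deletion, so these groups rest on their titles. Of the lineage markers, the pluripotency factor POU5F1 was at 93.7 to 168 RPKM in the WT libraries of day 0. The endoderm factor FOXA2 was at 56.9 to 84.3 in day 7 endoderm, and SPN, the gene of CD43, at 30.6 to 65.7 in CD43+ cells. The summed level of 4 endothelial markers (CDH5, PECAM1, TEK and KDR) was 1371 to 1607 RPKM in day 7 SOX17+ WT cells.

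In unsorted cultures a small family carried most of the signal of the set. IFITM1, IFITM2 and IFITM3, membrane proteins that block virus entry, made up 88.25% of the summed RPKM of the 38 members in day 0 WT mesoderm cultures and 91.62% in day 2 endoderm. That share was 41.48% in day 7 SOX17+ WT cells and 36.63% in day 12 SOX17- CD43+ cells. In each of the day 7 SOX17+ WT libraries BST2 alone was above IFITM3 (levels below), so another member carried much of the remainder there. Against this, the number of members with a mean above 1 RPKM was 17 at day 0, 12 in day 4 mesoderm, 14 in day 7 endoderm, 19 in day 7 SOX17+ cells and 30 in day 12 SOX17- CD43+ cells (WT). In unsorted cultures a smaller share of expressing cells and less RNA per cell cannot be told apart.

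**Figure D1:**
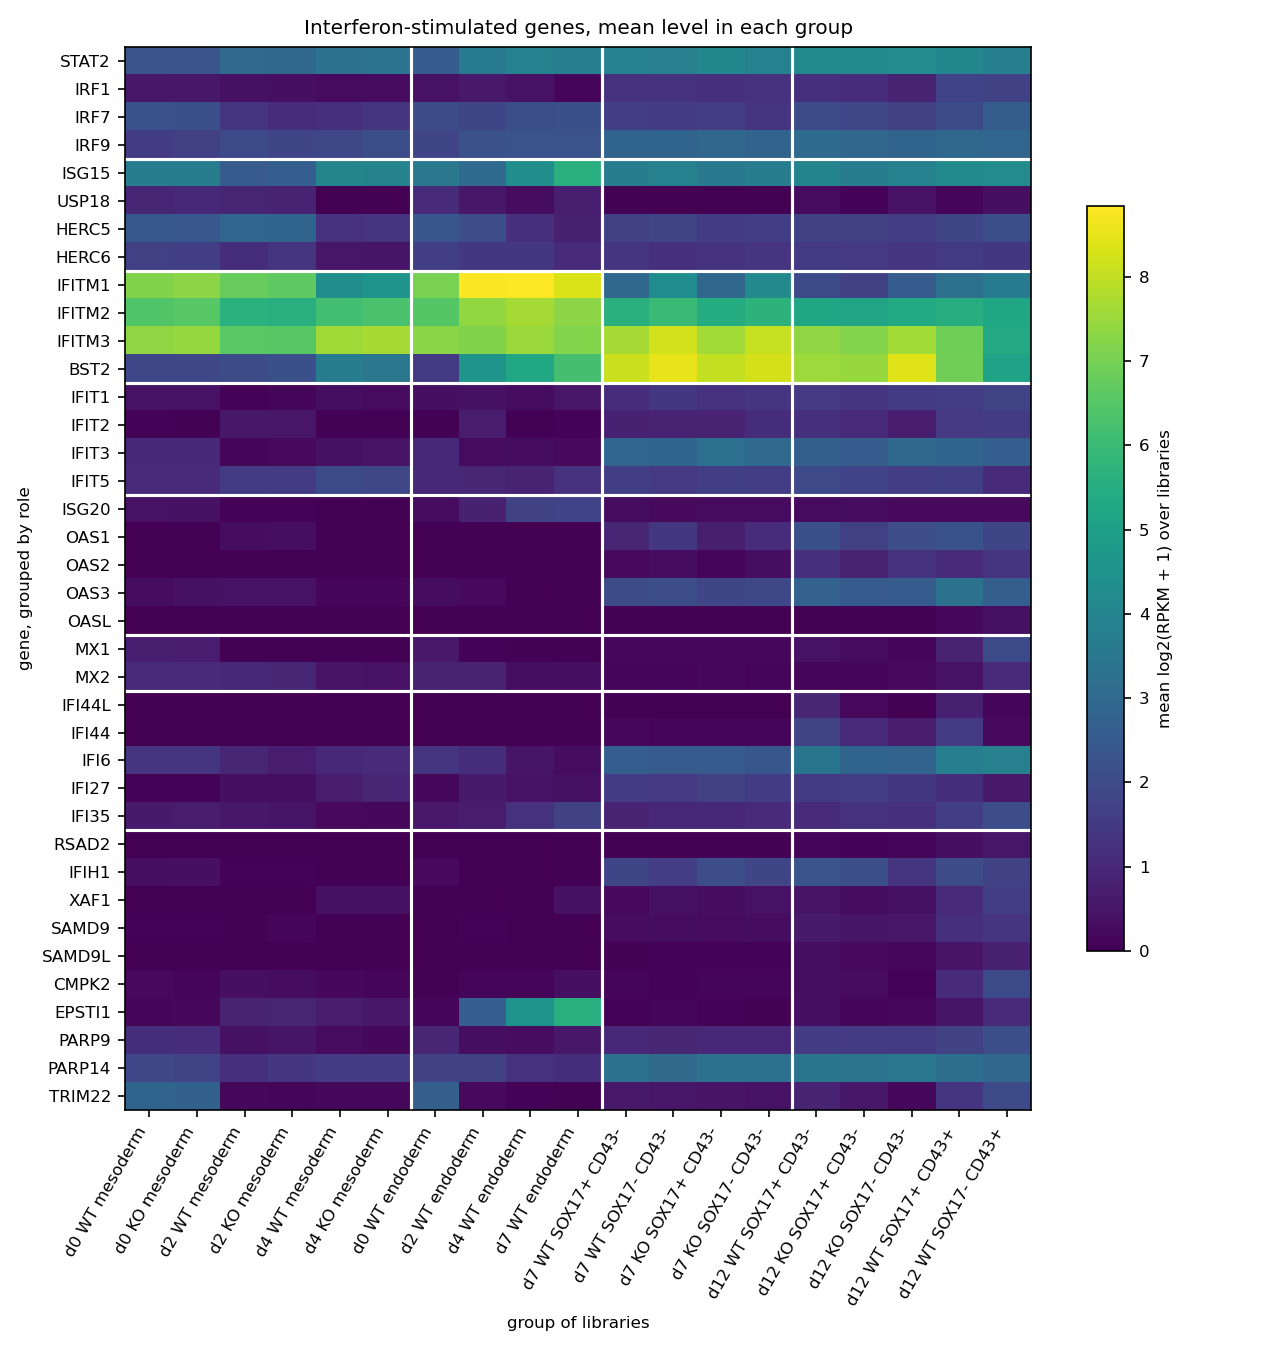
Mean log2(RPKM + 1) of each of the 38 genes (rows, by role) in each group of libraries (columns). IFITM2 and IFITM3 are bright in unsorted cultures. IFITM1 is bright in endoderm and day 2 mesoderm and duller in day 4 mesoderm and in sorted cells. BST2 is bright in sorted CD43- cells, and IFI44L, IFI44, OAS1 and OAS2 are at or near 0 in unsorted cultures.

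From day 0 to day 2 of mesoderm culture, when the cells pass through a primitive-streak-like stage, most members that changed were lower. In WT, 6 members were higher and 12 lower of 30 tested, and 45.1% of all genes were called (22.2% higher, 22.9% lower). The median log2 change was -0.52 for the members and 0.00 for all genes. TRIM22, a ubiquitin ligase that restricts viruses, was at 2.74, 10.8, 6.25 and 7.01 RPKM in the 4 day 0 libraries and at 0.165, 0.161, 0.197 and 0.0938 at day 2. All day 2 libraries lay far below all day 0 libraries, with a log2 change of -5.40 ± 0.48 (edgeR adjusted p 6.33e-09). MX1, a GTPase that traps viral particles, went from 0.651, 0.585, 0.804 and 0.663 RPKM to 0.0494, 0.0112, 0.0552 and 0.0219, a change of -4.18 ± 0.35. The fall of MX1 left 15 counts in 4 libraries. ISG15, a ubiquitin-like protein that is attached to other proteins, was at 16.9, 10.4, 10.1 and 12.4 RPKM at day 0 and at 4.52, 4.84, 5.3 and 4.7 at day 2. Every day 2 library was below every day 0 library, at -1.36 ± 0.21. ISG20, an exonuclease for RNA, fell by 2.48 ± 0.39, PARP9 by 1.92 ± 0.27 and IFITM3 by 0.79 ± 0.17 on the log2 scale.

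The 6 members of WT mesoderm that rose at day 2 were EPSTI1, IFIT2, IFI27, STAT2, IFIT5 and IRF9. EPSTI1, a gene named for its response to stroma in epithelial cells, was at 0.0949, 0.124, 0.0265 and 0.0603 RPKM at day 0 and at 0.605, 1.3, 1.11 and 0.478 at day 2 (3.50 ± 0.45). IFI27 was called higher at 2.00 ± 0.39 and STAT2, a subunit of ISGF3, at 0.89 ± 0.18. STAT2 was at 2.65 to 4.92 RPKM at day 0 and 5.62 to 7.86 at day 2, without overlap.

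From day 2 to day 4 of WT mesoderm, 10 members were higher and 11 lower of 30 tested, with 51.4% of all genes called, 25.9% higher, 25.5% lower. The genes of ISG15 conjugation parted. ISG15 itself returned to 15.7, 18.6, 12.3 and 14.7 RPKM, above every day 2 library and overlapping day 0 (1.66 ± 0.21, edgeR adjusted p 8.32e-07). USP18, the protease that removes ISG15 from proteins and dampens the interferon receptor, had 92 counts in the 4 day 2 libraries and 2 at day 4, which gives no fold. Its level was 0.799, 0.592, 1.12 and 1.1 RPKM at day 2, and 3 of the 4 day 4 libraries had none. HERC5, the ligase that attaches ISG15, was at 7.45, 4.64, 6.75 and 6.75 RPKM at day 2 and at 1.42, 0.797, 3.1 and 0.932 at day 4, all lower (-2.03 ± 0.37). In KO cells USP18 had 98 counts at day 2 and 0 at day 4, HERC5 changed by -1.90 ± 0.37 and ISG15 by 1.49 ± 0.20.

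Neighbouring genes of a family also went apart in mesoderm. IFITM1 (chromosome 11, 313506 to 315272) was at 128, 81.4, 134 and 95.8 RPKM at day 2 and at 20.2, 22.1, 23.8 and 15.5 at day 4. All day 4 libraries were below all day 2 libraries (-2.43 ± 0.35). IFITM3 (chromosome 11, 319669 to 327537, on the other strand) was at 101, 90.6, 101 and 86.5 RPKM and then at 164, 259, 163 and 190, all higher (1.03 ± 0.18). IFITM1 and IFITM2 share 351 exonic bases on the same strand in the annotation, 32.5% of IFITM1's exonic bases, so their counts are not fully separate. In the IFIT cluster on chromosome 10, whose proteins bind foreign RNA ends, IFIT2 and IFIT3 moved in opposite directions. IFIT3 was at 1.11, 1.07, 0.842 and 1.04 RPKM at day 0 and at 0.0268, 0.0735, 0.21 and 0.0357 at day 2 (-3.48 ± 0.51). IFIT2 was at 0, 0.0558, 0.0478 and 0.108 RPKM at day 0, at 0.225, 0.355, 0.831 and 0.574 at day 2 (3.21 ± 0.57) and at 0.0149, 0.0441, 0 and 0.0516 at day 4 (-4.10 ± 0.62). IFIT2 was thus high at day 2 only among these 3 days, while IFIT3 was then lowest. The counts of IFIT2 were 12, 96 and 7 over 4 libraries, and it shares 8.68% of its exonic bases with the annotated gene AL353751.1.

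XAF1, a binding partner of the apoptosis inhibitor XIAP, was near 0 until day 2 and was at 0.157, 0.337, 0.394 and 0.405 RPKM at day 4 of WT mesoderm (4.53 ± 0.60, from 4 counts to 136). BST2, or tetherin, which holds budding viruses at the membrane, was at 3.36, 2.43, 3.47 and 3.03 RPKM at day 2 and at 7.85, 8.68, 19.8 and 15.3 at day 4 (2.07 ± 0.56). The BST2 groups of day 2 and day 4 did not overlap. At day 0, however, WT library 1 was at 9.01 RPKM and the others at 1.33 to 2.22.

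No member was called between KO and WT at day 0, 2 or 4, where 0% of all genes were called in each, and 0, 1 and 1 members had an unadjusted p under 0.05. DESeq2 also called 0 members at each of the 3 days. In the KO libraries' own course from day 0 to day 2, 5 members were higher and 14 lower (43.3% of all genes called, 21.6% higher, 21.7% lower), with TRIM22 at -5.90 ± 0.50, MX1 at -4.06 ± 0.34, EPSTI1 at 2.64 ± 0.41 and IFIT2 at 3.19 ± 0.58. From day 2 to day 4, 8 were higher and 8 lower (50.5% called, 26% higher, 24.5% lower), with IFITM1 at -1.95 ± 0.35 and XAF1 at 4.03 ± 0.54. IFITM1 was at 86.2, 98.7, 66.3 and 173 RPKM in KO at day 2, where library 4 was the highest for 21 of the 29 members with enough counts to rank.

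**Figure D2:**
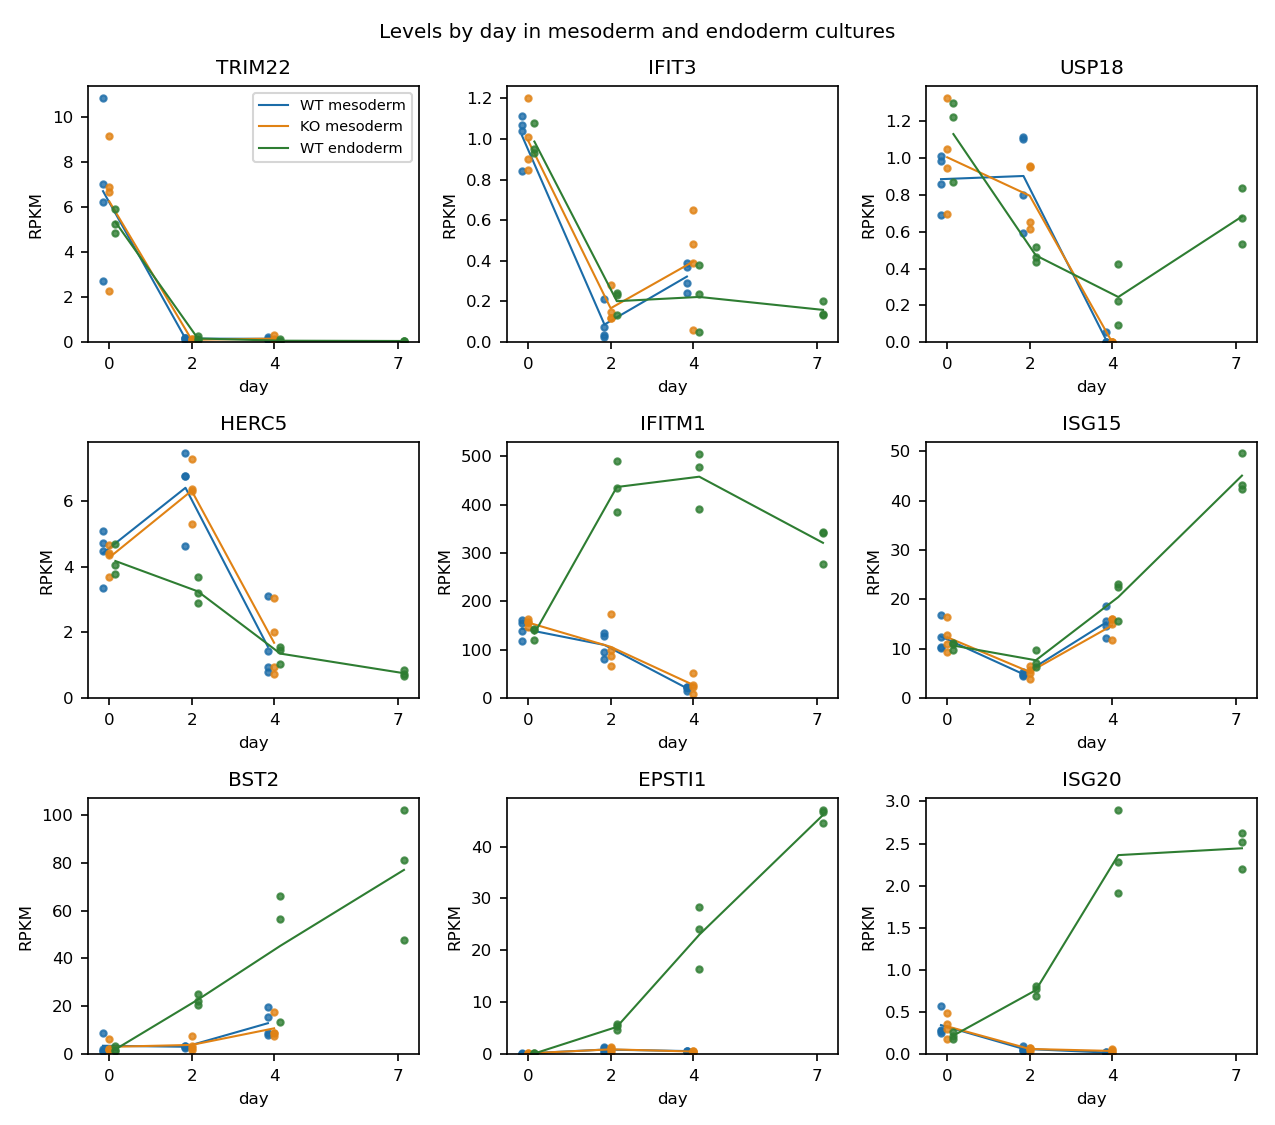
RPKM of 9 members by day in WT mesoderm, KO mesoderm and WT endoderm cultures; points are libraries and lines join group means. TRIM22 and IFIT3 drop at day 2 in all 3 courses, and IFITM1, BST2, EPSTI1 and ISG20 climb in endoderm.

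In endoderm, IFITM1, EPSTI1, BST2 and ISG20 were among the members that rose. From day 0 to day 2, 10 members were higher and 6 lower of 29 tested (55.5% of all genes called, 28.7% higher, 26.8% lower). IFITM1 was at 120, 140 and 142 RPKM at day 0 and at 385, 436 and 490 at day 2. The 3 day 2 libraries exceeded all day 0 libraries (1.71 ± 0.13, edgeR adjusted p 1.01e-07). It stayed at 478, 391 and 505 RPKM at day 4 and was at 344, 342 and 278 at day 7, where the change of -0.51 ± 0.13 was called. IFITM2 was higher at day 2 by 0.94 ± 0.12, while IFITM3 lay at 137, 168 and 157 RPKM and then 125, 148 and 151, which overlap.

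EPSTI1 climbed at each step of the endoderm culture. Its libraries were at 0.12, 0.137 and 0.0901 RPKM at day 0, at 5.78, 4.62 and 5.32 at day 2, at 24.1, 16.5 and 28.4 at day 4 and at 47, 46.7 and 44.5 at day 7. No 2 neighbouring days overlapped, and the steps were 5.47 ± 0.25, 2.14 ± 0.16 and 1.01 ± 0.15 on the log2 scale. ISG20 was at 0.266, 0.184 and 0.211 RPKM at day 0, at 0.779, 0.804 and 0.695 at day 2 and at 1.92, 2.9 and 2.28 at day 4. Both steps of ISG20 were called (1.78 ± 0.21 and 1.65 ± 0.17), and at day 7 it was at 2.62, 2.2 and 2.51, within the range of day 4.

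BST2 was at 1.53, 1.1 and 3.31 RPKM at day 0 and at 22.2, 20.7 and 25.3 at day 2 of endoderm (3.56 ± 0.56). Later libraries spread widely, at 56.4, 13.4 and 65.9 at day 4 and 81.3, 102 and 47.6 at day 7, and neither later step was called. Day 4 library 3 of endoderm carries a library number from the series of the sorted samples, unlike the other endoderm libraries.

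From day 2 to day 4 of endoderm 6 members were higher and 7 lower (42.4% of all genes called, 22.2% higher, 20.2% lower), and from day 4 to day 7, 8 were higher and 6 lower (21.3% called, 11.2% higher, 10.1% lower). ISG15 was at 6.21, 9.73 and 7.05 RPKM at day 2, at 22.6, 15.7 and 23.1 at day 4 and at 42.5, 43.2 and 49.6 at day 7. These 3 days did not overlap (1.43 ± 0.18 and 1.14 ± 0.17). HERC5, the ligase, went the other way, from 3.18, 2.88 and 3.67 RPKM to 1.47, 1.54 and 1.05 and then 0.728, 0.867 and 0.675 (-1.25 ± 0.17 and -0.83 ± 0.19). ISG15 and its ligase thus moved in opposite directions at both steps. IRF1, a transcription factor induced chiefly by interferon gamma, fell by 2.16 ± 0.28 from day 4 to day 7, and XAF1 was higher at day 7 by 3.11 ± 0.50.

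Some changes of endoderm resembled those of mesoderm in direction. TRIM22 was at 5.25, 5.93 and 4.86 RPKM at day 0 and at 0.135, 0.0867 and 0.263 at day 2 of endoderm (-5.04 ± 0.32). MX1 changed by -3.10 ± 0.31 and IFIT3 by -2.28 ± 0.41. IFIT2 was higher at day 2 by 3.74 ± 0.53 and lower at day 4 by 3.84 (-3.84 ± 0.55), from 9 counts to 136 and then 8 over 3 libraries, the same brief course as in mesoderm.

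The difference between the protocols was tested directly as the change from day 0 in endoderm minus that in WT mesoderm. At day 2, 11 members had a higher change in endoderm and 0 a lower one of 30 tested (29.5% of all genes called, 15.5% higher, 13.9% lower), and at day 4, 10 had a higher and 4 a lower change (40.4% called, 20.5% higher, 19.9% lower). At day 4 the differences were 7.52 ± 0.47 for ISG20, 4.68 ± 0.68 for EPSTI1, 4.59 ± 0.25 for IFITM1 and 2.97 ± 0.61 for IFI35, which all passed under each alternative run. The opposite sign was called for IFIT5 (-1.72 ± 0.41) and IFI27 (-1.71 ± 0.52). For ISG20 the mesoderm libraries were at 0.571, 0.27, 0.284 and 0.252 RPKM at day 0 and at 0.0249, 0.0246, 0.0161 and 0.00957 at day 4, so it fell there and rose in endoderm. BST2 differed by 3.75 ± 0.87 at day 2 and by 2.66 ± 0.83 at day 4, and the latter passed edgeR's test at adjusted p 0.0145 but not without WT mesoderm library 1 of day 0 (0.0833). The protocols share no culture, so medium and culture batch cannot be told apart.

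Endothelium of day 7 carried a different part of the set. Against day 4 mesoderm, SOX17+ CD43- WT cells had 19 members higher and 5 lower of 29 tested (62.8% of all genes called, 31.7% higher, 31.1% lower), and the member median was 1.79 against -0.02 for all genes. Day, sorting and series of library numbers differ together here and cannot be told apart. The RNA sensors and the OAS enzymes, which make the second messenger of RNase L, led the higher members. IFIH1, the sensor MDA5 for long double-stranded RNA, was at 0.0135, 0.0133, 0.0262 and 0.0311 RPKM at day 4 and at 3.06, 2.46, 2.36 and 2.41 at day 7 (6.86 ± 0.27, edgeR adjusted p 7.86e-08). OAS3 was at 0.111, 0.153, 0.079 and 0.102 RPKM and then at 3.47, 3.6, 3.34 and 2.33 (4.84 ± 0.23). Neither gene's groups overlapped.

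IFIT3 was at 0.37, 0.388, 0.292 and 0.24 RPKM in day 4 mesoderm and at 6.7, 7.25, 5.87 and 5.83 in day 7 SOX17+ endothelium (4.31 ± 0.18). BST2 reached 256, 274, 277 and 316 RPKM, above the 7.85 to 19.8 of day 4 (4.45 ± 0.29). In each of these 4 libraries BST2 was above IFITM3, which was at 191, 252, 166 and 193 RPKM. IFITM1 was lower, at 6.3, 9.14, 6.52 and 5.59 RPKM (-1.55 ± 0.19), and EPSTI1 was lower by 2.95 ± 0.34 on the log2 scale. IFITM1 was thus lower and BST2 higher at day 7 than at day 4.

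Day 7 endoderm and day 7 SOX17+ endothelium both express SOX17 and were compared directly. Of 33 tested, 11 were higher in endoderm and 21 lower, with 71.6% of all genes called, 35.3% higher, 36.3% lower. EPSTI1 was at 44.5 to 47 RPKM in endoderm and at 0.0369 to 0.116 in endothelium (9.28 ± 0.18), IFITM1 at 278 to 344 and 5.59 to 9.14 (5.56 ± 0.16), and ISG20 at 2.2 to 2.62 and 0.169 to 0.288 (3.42 ± 0.19). ISG15 was higher by 1.87 ± 0.17. None of these ranges overlapped. The reverse held for OAS3 (-6.07 ± 0.27), IFIH1 (-6.03 ± 0.31), IFIT3 (-5.29 ± 0.22), IFI6 (-4.51 ± 0.34), IRF1 (-4.13 ± 0.21) and BST2 (-1.85 ± 0.21). OAS1 had 338 counts in the 4 endothelial libraries and OAS2 had 70, and neither had any in the 3 endoderm libraries. These groups differ in protocol, sorting and series of library numbers.

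Among day 7 CD34+ CD43- cells, SOX17 status separated IFITM1 alone at the threshold. In WT, 0 members were higher and 1 lower in SOX17+ cells of 38 tested (1.6% of all genes called, 0.927% higher, 0.67% lower, 8 members at an unadjusted p under 0.05). IFITM1 was at 6.3, 9.14, 6.52 and 5.59 RPKM in SOX17+ and at 15, 18.6, 11.6 and 35.1 in SOX17- cells. No SOX17+ library reached a SOX17- one (-1.55 ± 0.30, edgeR adjusted p 0.00536). SOX17- library 4 stood apart, also with BST2 at 562 RPKM against 307 to 356 in the other 3, and without it the IFITM1 difference was -1.13 ± 0.27 (adjusted p 0.0362).

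In KO the same comparison gave 0 higher and 1 lower (0.67% of all genes called, 0.348% higher, 0.322% lower), with IFITM1 at 7.48, 9.97, 4 and 5.87 RPKM against 17.5, 21.9 and 12.9 (-1.34 ± 0.32, edgeR adjusted p 0.0432). The KO call was lost when any 1 of 6 of its 7 libraries was left out, with an edgeR adjusted p up to 0.303. Summed markers of mesenchyme (COL3A1, LUM and PDGFRA) moved with it, at 21.1 to 55.26 RPKM in WT SOX17+ and 86.49 to 164.5 in WT SOX17- cells, and 2 of these 3 markers were called lower in SOX17+ cells of each genotype. Their part in the IFITM1 difference was not tested.

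From day 7 to day 12 more members rose than fell in SOX17+ CD43- endothelium. The mean summed RPKM of the set was lower at day 12, at 498.4 against 612.9 in WT and 451.0 against 593.2 in KO. The libraries overlapped in KO. BST2 was called lower in WT (-0.59) and in KO (-0.57). In WT, 18 members were higher and 2 lower of 38 tested (17.8% of all genes called, 8.57% higher, 9.23% lower), and the member median was 0.63 against -0.01. In KO, 7 were higher and 3 lower (13.3% called, 6% higher, 7.29% lower), with a median of 0.31 against -0.01. IFI44L, an IFI44 relative, was at 0.00593, 0.0355, 0.0658 and 0.0116 RPKM in WT at day 7 and at 0.39, 0.841, 2.81 and 0.366 at day 12. All day 12 libraries were above all day 7 libraries, and library 3 was more than 3 times any other (5.14 ± 0.71, edgeR adjusted p 9.47e-06). IFI44, its neighbour on chromosome 1, was at 0.149, 0.178, 0.229 and 0.0291 RPKM and then at 1.17, 2.48, 6.69 and 1.58, again highest in library 3 (4.30 ± 0.65).

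The OAS family followed. OAS2 was at 0.155, 0.174, 0.223 and 0.0851 RPKM in WT at day 7 and at 0.827, 1.58, 2.07 and 0.813 at day 12 (3.04 ± 0.40). OAS1 was at 0.553, 1.09, 1.64 and 0.563 RPKM and then at 1.78, 4.36, 5.33 and 3.12 (1.91 ± 0.39). Both genes were higher in every day 12 library than in any day 7 library. Also higher in WT were SAMD9L (2.88 ± 0.57), EPSTI1 (1.97 ± 0.44), SAMD9 (1.55 ± 0.40), MX1 (1.41 ± 0.30), IFI6 (0.99 ± 0.22) and PARP9 (0.97 ± 0.17). IFITM1 was lower again, at 3.35, 2.46, 4.43 and 2.05 RPKM (-1.15 ± 0.32), and this call ended without WT day 7 library 2 (edgeR adjusted p 0.0547).

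WT day 12 library 3 was the highest of its group for 23 of the 37 members with at least 20 counts to rank. Without it 11 members were called in place of 20. IFI44L (4.10), IFI44 (3.53), OAS2 (2.75), OAS1 (1.68), MX1 (1.24), EPSTI1 (1.53) and IFI6 (0.67) still passed with these log2 changes. XAF1, OAS3, IFIH1, IFIT1, IFIT2, IFIT5, CMPK2, USP18 and BST2 did not.

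In KO the rise of IFI44 was 3.63 ± 0.76, of OAS2 2.88 ± 0.42, of OAS1 1.65 ± 0.41 and of PARP9 0.82 ± 0.17, and all held under every alternative run. OAS2 in KO was at 0.116, 0.196, 0.0903 and 0.0444 RPKM at day 7 and at 0.955, 0.816, 0.679 and 0.92 at day 12, with no overlap and a narrow spread at day 12. IFI44L rose by 2.89 ± 0.83 in KO (edgeR adjusted p 0.0189), a call that ended under limma (0.619) and without KO day 7 library 1 (0.0566) or 2 (0.0635) or KO day 12 library 4 (0.0553). IFITM1 (-1.62 ± 0.33) and IFIT3 (-0.77 ± 0.17) were lower, as was BST2 (-0.57), whose call ended under 6 of 15 alternatives. Fewer calls in KO do not show a smaller rise, since the difference between the genotypes' changes was called for 0 members (0.00435% of all genes, 4 members at an unadjusted p under 0.05, and 0 members by DESeq2).

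**Figure D3:**
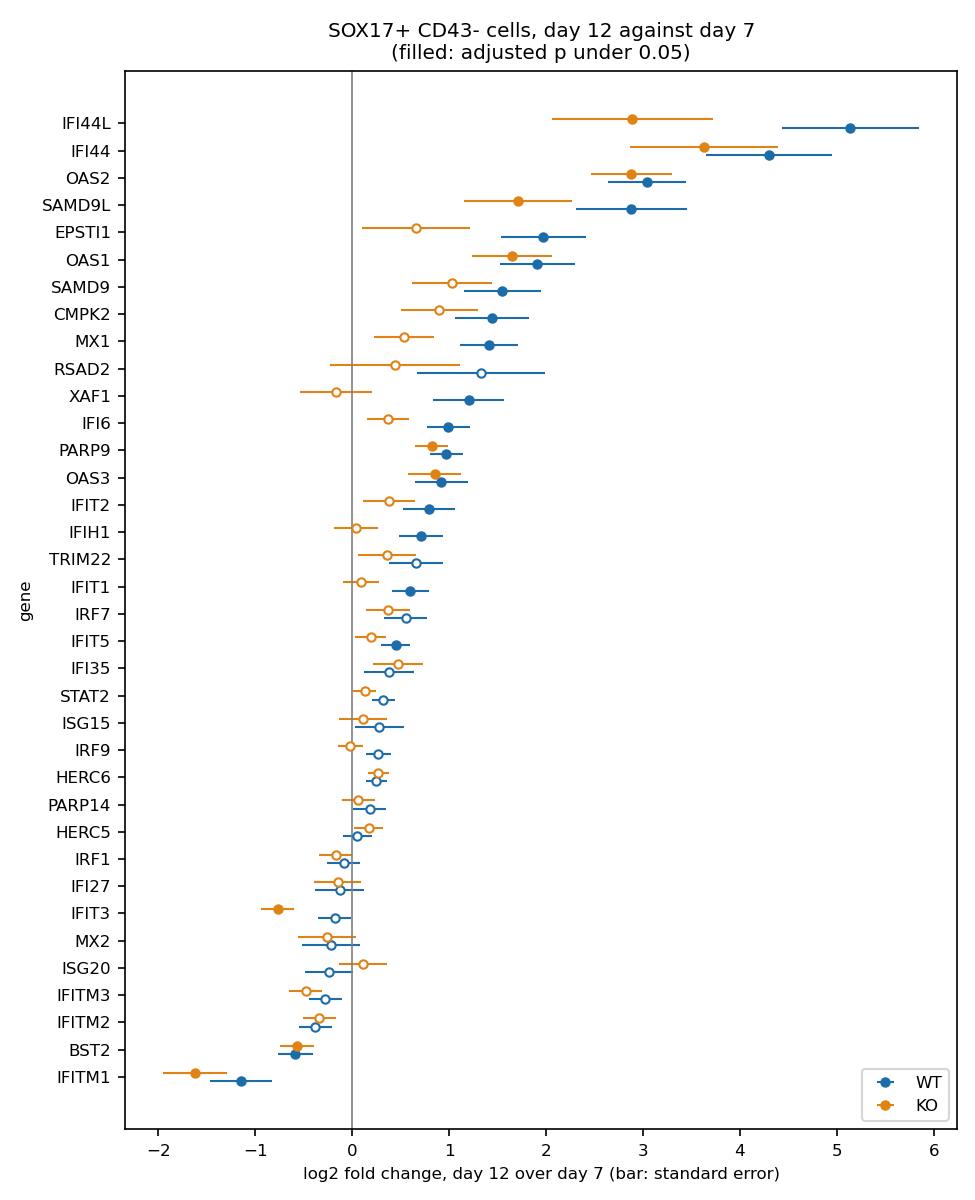
Log2 fold change of day 12 over day 7 in SOX17+ CD43- cells for WT (blue) and KO (orange), for the 36 members with more than 3 counts in each group; bars are standard errors and filled points passed the adjusted p of 0.05. IFI44L, IFI44 and OAS2 are highest in both genotypes and IFITM1 is lowest.

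**Figure D4:**
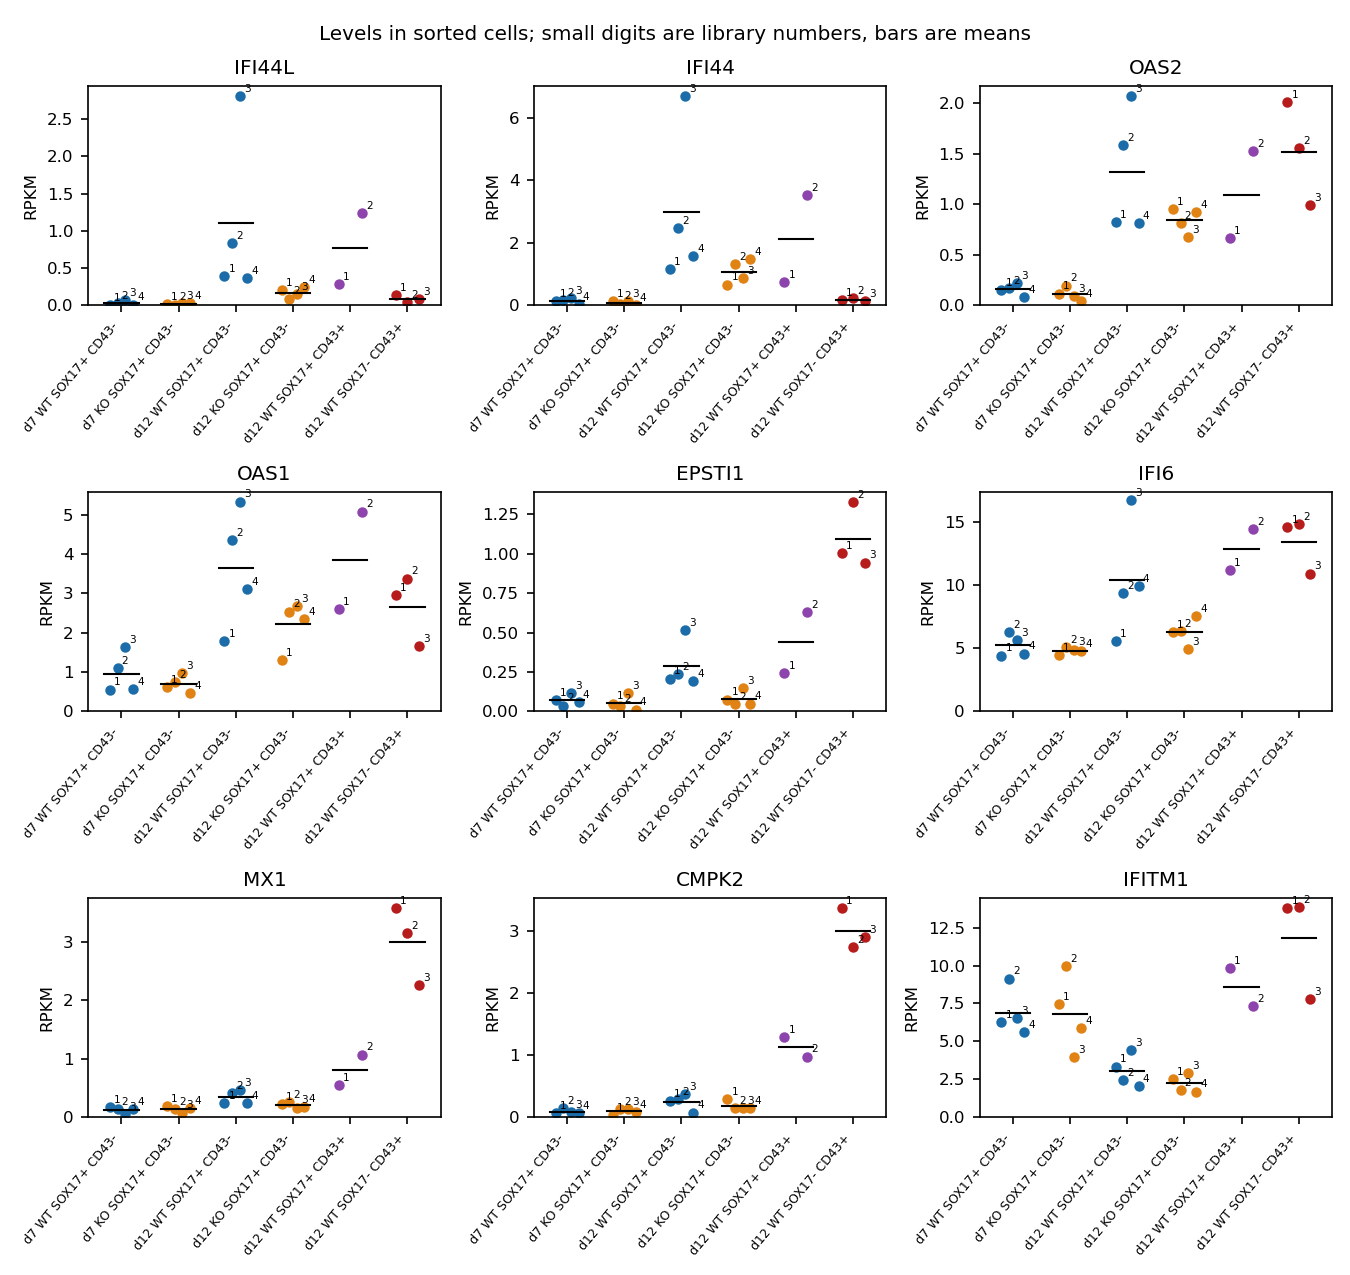
RPKM of 9 members in 6 sorted groups, with a point and a number for each library and a bar at the group mean. WT day 12 library 3 is the top point of its group for IFI44L, IFI44, OAS2, OAS1, EPSTI1, IFI6, MX1, CMPK2 and IFITM1, and CMPK2 and MX1 are highest in SOX17- CD43+ cells.

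Whether the members depend on RUNX1 was asked at day 7 and day 12. At day 7, 0 members were called in SOX17+ cells (0.0566% of all genes called, 1 member at an unadjusted p under 0.05) and 0 in SOX17- cells (0.0087%, 2 members), and DESeq2 also called 0 in both. At day 12 IFI44L alone was called, lower in KO (0.187% of all genes called, 0.00435% higher, 0.183% lower, 8 members at an unadjusted p under 0.05). Its KO libraries were at 0.205, 0.0908, 0.15 and 0.245 RPKM, below the WT libraries at 0.39, 0.841, 2.81 and 0.366 (-2.67 ± 0.58, edgeR adjusted p 0.0444). The call was lost under 10 of 15 alternatives. Without WT library 3 the change was -1.63 with an edgeR adjusted p of 0.914. With the replicate number as a block it was -2.26 with 0.0711. A block for the run of library numbers gave -2.24 with 0.0289, which passed. EPSTI1 was at 0.0751, 0.0472, 0.146 and 0.0498 RPKM in KO and at 0.208, 0.237, 0.515 and 0.191 in WT, without overlap. Its change of -1.81 ± 0.43 did not pass (edgeR adjusted p 0.115). It did pass with DESeq2 (0.0364), with no filter on low counts (0.0128), with the replicate block (0.0279) and with the run block (0.0032). It also passed without KO library 3 (edgeR adjusted p 0.0471), but with no other single library left out. Nor did it pass with median-of-ratios scaling (edgeR adjusted p 0.103), with the compared groups alone (0.606) or with limma. Without WT library 3 the change of EPSTI1 was -1.37 and did not pass.

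Some blood cell markers differed between the genotypes in these day 12 cells. Of 11 markers of blood cells (RUNX1 left out), 0 were higher and 3 lower in KO, namely SPN, PTPRC and CSF1R. Of all genes 0.187% were called (0.00435% higher, 0.183% lower), and the other markers were not called. The summed level of the 11 markers overlapped, at 6.538 to 10.33 RPKM in WT, highest in library 3, and 6.341 to 9.964 in KO. The T cell marker CD3E was at 0 in KO. In SOX17+ CD43- cells of day 7 the sum was 7.98 to 11.75 RPKM in WT and 10.84 to 15.17 in KO. In SOX17- CD43+ cells it was 226.4 to 300.2 RPKM. Of the 11 markers, 10 were called higher and 1 lower there than in WT SOX17+ CD43- cells of day 12, where 66.2% of all genes were called. PTPRC, the pan-leukocyte antigen CD45, was at 0.0258, 0.0929, 0.235 and 0.048 RPKM in WT and at 0 in 3 KO libraries. IFI44L was lower in SOX17- CD43+ cells, at 0.133, 0.0451 and 0.085 RPKM, than in any WT CD43- library, while EPSTI1 was higher there, at 1, 1.32 and 0.943. In SOX17+ CD43+ cells IFI44L was at 0.29 and 1.24 RPKM, both above every KO SOX17+ CD43- library of day 12. The part of blood cells in the levels of IFI44L and EPSTI1 by genotype was not tested.

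Blood cells of day 12 (SOX17- CD43+) were compared with SOX17+ CD43- endothelium of the same day. In WT, 17 members were higher and 9 lower of 38 tested. This share of 68.4% was near the 66.2% of all genes called (32.3% higher, 33.9% lower). Among members with more than 3 counts in each group, CMPK2, MX2 and MX1 had the highest log2 changes. CMPK2, a mitochondrial nucleotide kinase, was at 3.37, 2.75 and 2.9 RPKM in blood cells and at 0.263, 0.301, 0.38 and 0.0779 in endothelium (3.58 ± 0.31, edgeR adjusted p 7.47e-11). MX1 was at 3.57, 3.14 and 2.26 RPKM against 0.244, 0.421, 0.464 and 0.241 (3.17 ± 0.27), and MX2 at 1.184, 1.088 and 0.89 against 0.124, 0.0894, 0.0907 and 0.123 (3.34 ± 0.29). None of these 3 genes overlapped between the groups.

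XAF1 (2.53 ± 0.34), RSAD2, the antiviral enzyme viperin (2.38 ± 0.51), IFITM1 (1.97 ± 0.34), EPSTI1 (1.95 ± 0.36), TRIM22 (1.94 ± 0.28) and IFI35 (1.67 ± 0.26) were higher in blood cells too. OASL, an OAS-like protein without the enzyme activity, had 60 counts in blood cells and 2 in endothelium and is given by its counts alone. Blood library 3 was the lowest of its group for 29 of 37 members, such as XAF1 at 1.21 RPKM against 2.33 and 3.09.

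The 2 members with the highest log2 change in WT endothelium by day 12, IFI44L and IFI44, were lower in blood cells, while SAMD9L (1.55 ± 0.44) was higher and OAS2 and OAS1 were not called. IFI44 was at 0.175, 0.227 and 0.142 RPKM in SOX17- CD43+ cells, below all 4 endothelial libraries (-3.97 ± 0.71), and IFI44L changed by -3.60 ± 0.70. BST2 was at 31.6, 30 and 38.6 RPKM against 180, 165, 170 and 229 (-2.43 ± 0.21). IFITM3 was at 42.2, 38.7 and 37 RPKM against 144, 168, 161 and 185 (-2.02 ± 0.20), again without overlap. IFI27 (-1.71 ± 0.30) and IFIT5 (-1.37 ± 0.18) were lower too. IFITM1 and IFITM3 thus had opposite signs in this comparison as well as from day 2 to day 4 of mesoderm.

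Cells with both SOX17 and CD43 were compared with each of these groups. Against SOX17+ CD43- cells, 11 members were higher and 0 lower (26.5% of all genes called, 15.5% higher, 10.9% lower), and against them SOX17- CD43+ cells had 6 higher and 6 lower (37.5% called, 14.6% higher, 22.9% lower). Both comparisons share libraries with the one above and are given side by side. CMPK2 was at 1.29 and 0.981 RPKM (2.19 ± 0.34 over endothelium), MX2 at 0.31 and 0.386 (1.75 ± 0.33) and IRF1 higher by 0.93 ± 0.20, and these 3 calls held under every alternative run. The 2 libraries differed for IFI44L, at 0.29 and 1.24 RPKM, and for IFI44, at 0.744 and 3.52. Without library 2 the count was 4 members in place of 11, with the spread of the lone sample taken from the other groups.

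**Figure D5:**
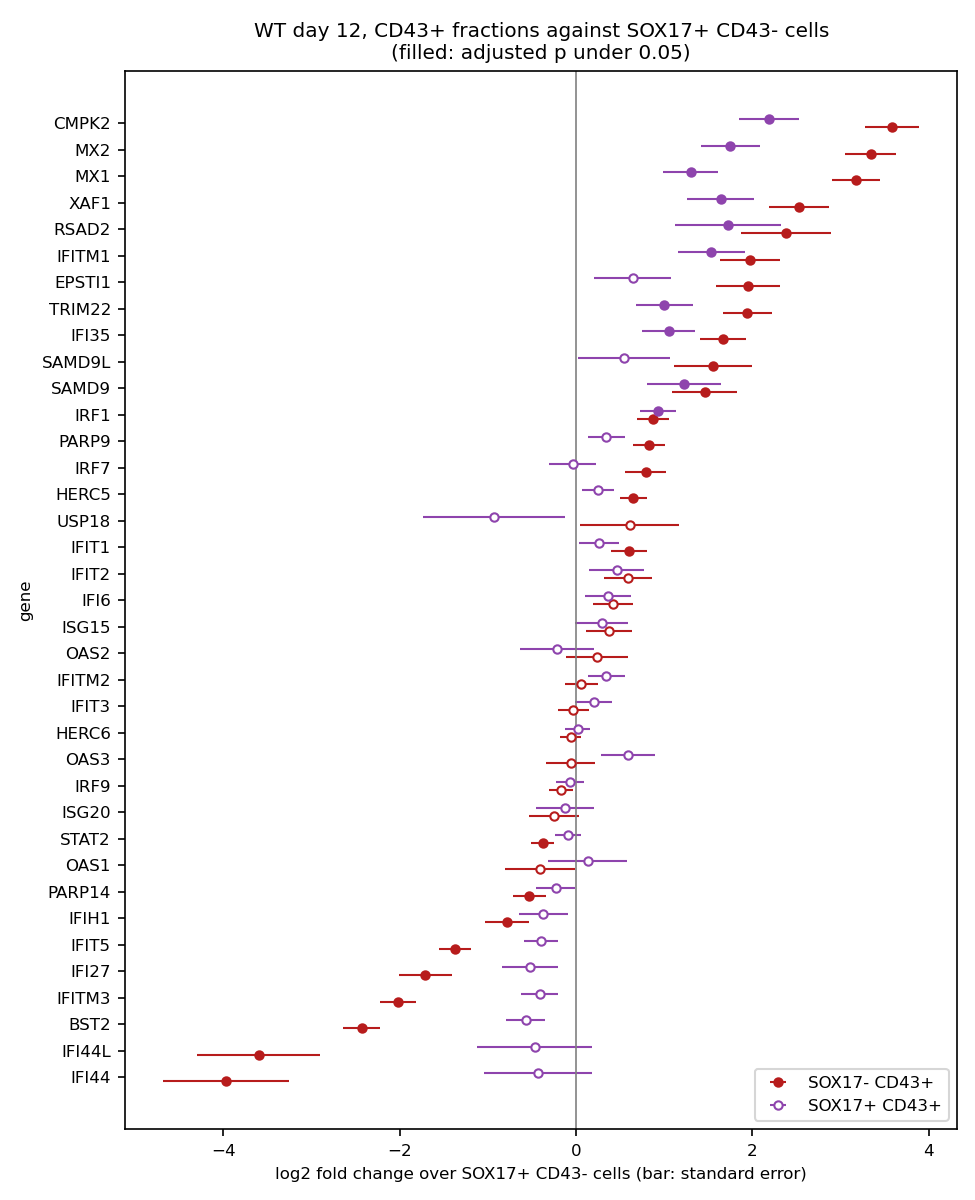
Log2 fold change of WT day 12 SOX17- CD43+ cells (red) and SOX17+ CD43+ cells (purple) over SOX17+ CD43- cells for the 37 members with more than 3 counts in each group; bars are standard errors and filled points passed the adjusted p of 0.05. CMPK2, MX2 and MX1 are at the top, and IFI44, IFI44L, BST2 and IFITM3 are lowest in SOX17- CD43+ cells.

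The other genes of the pathway were taken from a list of 40. Interferon genes were at or near 0. Of 8 ligand genes, IFNA1 and IFNL3 had no count in 65 libraries, and IFNB1, the first interferon made by infected cells, had 11 in all. IFNE, an interferon of epithelia, was the exception, at 0 to 0.197 RPKM in day 2 endoderm and 0.565 to 1.23 at day 4 (2.92 ± 0.57, edgeR adjusted p 0.000974, from 9 counts to 62). In WT mesoderm from day 0 to day 2, 8 of 30 tested pathway genes were higher and 8 lower, where 45.1% of all genes were called (22.2% higher, 22.9% lower), with IFI16, a sensor of DNA, at 4.90 ± 0.62. From day 2 to day 4, 10 were higher and 10 lower (51.4% of all genes called, 25.9% higher, 25.5% lower), with SOCS1, a brake on the receptor kinases, at -4.06 ± 0.31 and DDX58, the RNA sensor RIG-I, at -3.28 ± 0.31.

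From day 2 to day 4 of endoderm, 10 of 29 tested pathway genes were higher and 8 lower, against 42.4% of all genes called (22.2% higher, 20.2% lower).

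From day 7 to day 12 in SOX17+ CD43- cells, 7 pathway genes were higher and 0 lower of 29 in WT (17.8% of all genes called, 8.57% higher, 9.23% lower), and 6 higher and 4 lower in KO (13.3% called, 6% higher, 7.29% lower). TMEM173, the adaptor STING of the DNA-sensing route, was higher by 2.03 ± 0.19 in WT and 2.33 ± 0.20 in KO. In SOX17- CD43+ cells 15 of 29 were higher and 5 lower than in endothelium, where 66.2% of all genes were called (32.3% higher, 33.9% lower), led by IRF8 (9.88 ± 0.32) and IRF5 (5.99 ± 0.39), factors of myeloid cells, with CGAS, the DNA sensor, at 2.69 ± 0.15 and AIM2 at -3.59 ± 0.31.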

How the data were processed

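RNA-seq of 65 libraries from H9-derived cultures was analysed from a deposited table of read counts per gene and a deposited table of log2 RPKM. Per the submitters' processing notes, R 3.2.2, cutadapt 1.18, featureCounts and GRCh38 were used; no source used here gives the aligner, annotation or gene lengths. The deposited counts are not normalized. The authors' log2 values are other than counts: they are log2(RPKM + 1), scaled between libraries, and levels were computed from them as linear RPKM. GENCODE 29 names were found for 58039 of 58302 gene IDs.

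Counts were tested with edgeR 4.0.16 (TMM, quasi-likelihood F test, filterByExpr with a minimum count of 10 and total of 15) in 25 comparisons under R 4.3.3, with Benjamini-Hochberg adjustment over all genes of a fit and a threshold of 0.05. The standard error is the log2 change divided by the root of F. Scripts were tested on simulated data. Alternatives were DESeq2 1.42.0, limma 3.58.1 on the deposited log2 values, median-of-ratios scaling, no filter on low counts, blocks for replicate or library run, the compared groups alone, and each library left out.

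Members and gene lists were chosen with earlier results of these data known. Any member may be named. Full values are given for called members with the largest changes, up to 8 in each direction, and more than 3 counts in each group. Up to 4 genes of the pathway list are named per comparison. No fold between groups is given where a group has 3 counts or fewer. Replicate numbers paired samples, with every correlation of deviations over 0.1, in KO against WT at day 0 (0.20 to 0.74) and in day 7 SOX17+ cells (0.16 to 0.36), and in WT day 12 against day 7 (0.12 to 0.20). The pairing comes from these correlations alone. Of 85 pairs of replicates none held identical values. The 1 library of KO SOX17- CD43- cells entered no test.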

Additional observations from a re-analysis of the deposited data

Results flagged for a closer look

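For members printed by library, each group of 4 libraries was tested gene by gene. In 9 of 105 such sets of values 1 library was far from the other 3. Independent normal values would give about 1 in 20, but the members share libraries, so this rate is no measure of chance here. BST2 accounted for 4 of these, at 9.006 RPKM in WT library 1 and 6.3 in KO library 1 of day 0, 17.47 in KO library 4 of day 4 mesoderm and 249.8 in KO library 3 of day 12 SOX17+ CD43- cells. WT library 3 of day 12 SOX17+ CD43- cells stood apart for EPSTI1 at 0.5148 RPKM and IFIT3 at 7.639. WT library 4 of day 7 SOX17- cells stood apart for PARP9 at 0.5223 RPKM and MX1 at 0.09783. TRIM22 was at 0.2263 RPKM in WT library 3 of day 4 mesoderm.

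The change from day 0 differed between endoderm and WT mesoderm for 25 values, each called by edgeR's test of the difference (endoderm minus mesoderm, log2). At day 2 these were ISG20 at 4.28, BST2 at 3.75, IFIT1 at 2.52, IFITM1 at 2.10, EPSTI1 at 1.97, IFITM2 at 1.70, IRF1 at 1.25, PARP14 at 1.04, IRF7 at 1.02, ISG15 at 0.90 and IFITM3 at 0.68. At day 4 they were ISG20 at 7.52, EPSTI1 at 4.68, IFITM1 at 4.59, USP18 at 3.37, IFI35 at 2.97, BST2 at 2.66, HERC6 at 1.81, IRF7 at 1.59, IRF1 at 1.41 and IFITM2 at 1.39. IFI27 at -1.71, IFIT5 at -1.72, XAF1 at -3.05 and OAS3 at -3.49 had the opposite sign. USP18 had 2 counts in day 4 mesoderm and OAS3 had 3 in day 4 endoderm, so their fitted differences depend on the prior count and are no measure of size, and neither passed with limma (adjusted p 0.574 and 0.347). Of 20 alternatives, 14 ended the call of IRF7 at day 2 and 12 that of XAF1 at day 4 (edgeR adjusted p 0.0468 and 0.0496). At day 2 the call ended under 4 for IRF1, 3 for EPSTI1 and 2 for ISG15, and at day 4 under 1 each for BST2, which was 1.58 without WT mesoderm library 1 of day 0, and HERC6, lost without endoderm library 3 of day 4 (adjusted p 0.064). The other 16 calls held under all 20.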

How the results depend on the processing

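No called change of a member reversed its sign under any alternative run. Changes of pathway genes and markers were not followed under the alternatives. Counts of called members stayed within 1.5 times the reported count except as follows. In endoderm, day 7 against day 4 gave 9 in place of 14 with the compared groups alone, and 9 to 13 with 1 library left out. SOX17+ against SOX17- cells of day 7 gave 1 in WT, but 2 with DESeq2, 3 with the library-run block, 2 with no filter, 2 with the replicate block and 1 to 2 with 1 library left out. In KO it gave 2 with the library-run block and 0 to 1 with 1 library left out. KO against WT at day 12 gave 1, but 0 with the compared groups alone, 2 with the library-run block, 0 with limma, 2 with no filter and 0 to 2 with 1 library left out. With 1 library left out, day 12 against day 7 gave 11 to 19 in WT and 6 to 9 in KO (6 without KO day 12 library 4 or KO day 7 library 2), and SOX17+ CD43+ against SOX17+ CD43- cells 4 to 13. The replicate block changed no member count where the numbers pair samples (0, 0 and 20), and the causes of these moves were not tested.

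Over all genes, calls between KO and WT rose from 0 to 143 at day 2 with the compared groups alone and to 14 with DESeq2, and from 0 to 2 with DESeq2 and 1 with limma at day 4. For SOX17 status in WT, 367 became 208 alone, 616 with the run block, 651 with no filter and 559 with the replicate block. In KO, 154 became 612 alone, 321 with DESeq2, 376 with the run block, 234 with limma, 446 with no filter and 311 with the replicate block. KO against WT at day 7 went from 13 to 30 with DESeq2, 22 with the run block and 34 with no filter in SOX17+ cells, and from 2 to 13, 7 and 24 in SOX17- cells, with 8 by limma and 7 with the replicate block. At day 12, 43 became 10 alone, 75 with DESeq2, 12 with limma and 96 with no filter. The difference of genotype effects went from 1 to 6 with DESeq2, 3 with the run block, 0 with limma, 11 with no filter and 6 with the replicate block. SOX17- CD43+ against SOX17+ CD43+ cells went from 8619 to 5683 alone. With 1 library left out, the lowest and highest counts over all genes were 166 and 407 for SOX17 status in WT and 46 and 160 in KO, 2 and 11 for KO against WT in day 7 SOX17+ cells, 1 and 2 in day 7 SOX17- cells, 28 and 52 at day 12, 0 and 3 at day 4, 1 and 6 for the difference of genotype effects, and 3857 and 5727 for SOX17+ CD43+ against SOX17+ CD43- cells. OASL had 2 counts in day 12 SOX17+ CD43- WT cells, so a lower level there was not detectable at this depth.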

Other observations

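The single KO library of day 12 SOX17- CD43- cells entered no comparison. Its levels were 335 RPKM for BST2, 195 for IFITM3, 4.88 for IFITM1, 3.23 for OAS1, 1.43 for OAS2, 0.586 for IFI44 and 0.0206 for IFI44L.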
